A study of Mus musculus with 6 samples.

Results

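The 38 genes described here are known targets of the peroxisome proliferator-activated receptors (PPARs), taken as a list of symbols and matched to a RefSeq table of 21631 mouse protein-coding genes on chromosomes 1 to 19 and X (GRCm38). All 38 symbols matched. For each gene a summit of open chromatin within 1 kb of either annotated gene end was sought in each library, and summits in the gene body and 20 kb around it were merged into regions. Chromatin of the thymus was profiled by ATAC-seq, a method that marks accessible DNA by where a transposase can insert, in mice killed at 4 weeks of age on a mixed BALB/C and C57BL6 background. In 3 libraries the mice carried the germline p53 allele AD, which the series calls dimeric, together with a p53-null allele (p53 AD/-), and in the other 3 both alleles were null (p53 -/-, null below). None of the 6 libraries is labelled wild type for p53, so the comparison is of AD/- with the absence of p53. The series title places the dimeric allele in the context of an altered metabolic program, which is the question this gene list addresses.

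PPARs are nuclear receptors that bind fatty acids and their derivatives and act on DNA as heterodimers with a retinoid X receptor (RXR). Their response element is a direct repeat of the core motif AGGTCA with 1 base between the copies. PPAR-alpha is best known in liver and heart, where it drives fatty acid oxidation, and PPAR-gamma in adipocytes, where it drives lipid storage, while most cells of the thymus are developing T cells.

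The promoters of 6 members are printed because they span the range found here. They run from a core motif together with a high-scoring start summit to no summit at all. Each is the 250 bases before the RefSeq start, on the coding strand (GRCm38.p6), and capitals mark the core motif in either orientation (AGGTCA or TGACCT). In Fabp1 the first run of capitals is a looser form of the repeat, with any base at the fourth place of each copy (AGGNCA), read on the opposite strand. Acadm, Slc27a2 and Acadl had a summit at the start in every library, and Fabp1, Ucp1 and Adipoq in none.
Acadm, chr3:153944644-153944893, minus strand: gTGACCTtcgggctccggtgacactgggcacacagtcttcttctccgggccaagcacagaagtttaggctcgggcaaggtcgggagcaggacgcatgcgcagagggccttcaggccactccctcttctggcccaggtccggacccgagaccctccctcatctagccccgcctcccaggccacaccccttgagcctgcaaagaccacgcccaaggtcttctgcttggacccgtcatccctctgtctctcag
Slc27a2, chr2:126552774-126553023, plus strand: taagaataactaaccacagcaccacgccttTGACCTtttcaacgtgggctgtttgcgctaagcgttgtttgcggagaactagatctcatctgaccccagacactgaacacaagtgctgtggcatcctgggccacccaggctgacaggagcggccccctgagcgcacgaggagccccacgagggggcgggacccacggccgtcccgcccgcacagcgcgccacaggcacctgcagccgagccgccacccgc
Acadl, chr1:66863310-66863559, minus strand: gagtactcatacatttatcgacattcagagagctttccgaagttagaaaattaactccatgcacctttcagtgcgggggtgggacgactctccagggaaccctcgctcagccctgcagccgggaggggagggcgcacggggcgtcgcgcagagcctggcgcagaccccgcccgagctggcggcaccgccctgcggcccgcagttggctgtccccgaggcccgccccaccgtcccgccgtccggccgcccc
Fabp1, chr6:71199629-71199878, plus strand: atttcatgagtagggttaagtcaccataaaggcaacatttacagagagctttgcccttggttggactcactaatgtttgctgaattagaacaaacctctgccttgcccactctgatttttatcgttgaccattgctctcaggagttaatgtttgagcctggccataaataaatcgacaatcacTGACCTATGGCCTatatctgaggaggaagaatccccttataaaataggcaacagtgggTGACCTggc
Ucp1, chr8:83290098-83290347, plus strand: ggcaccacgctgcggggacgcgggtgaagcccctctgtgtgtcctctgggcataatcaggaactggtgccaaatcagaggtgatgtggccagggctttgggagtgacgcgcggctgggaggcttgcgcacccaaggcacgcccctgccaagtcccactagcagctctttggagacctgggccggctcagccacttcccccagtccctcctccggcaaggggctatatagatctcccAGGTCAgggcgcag
Adipoq, chr16:23146286-23146535, plus strand: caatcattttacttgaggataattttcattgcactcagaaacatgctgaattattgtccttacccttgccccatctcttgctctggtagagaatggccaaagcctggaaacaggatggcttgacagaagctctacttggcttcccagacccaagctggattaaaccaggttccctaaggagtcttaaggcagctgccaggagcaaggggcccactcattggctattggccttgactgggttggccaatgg

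The core motif was also present before the start of 7 other members, shown here with 10 bases on each side so that the sequences next to it can be compared. Cpt1a, Plin2 and Plin5 had a summit at the start in all 6 libraries, Apoa2 in 5, and Aqp7, Cd36 and Ucp3 in none.
Cpt1a, chr19:3323197-3323222, plus strand: gtttccttacTGACCTcctccccgca
Plin2, chr4:86670262-86670287, minus strand: tcaggaccccTGACCTaagtcagaca
Plin5, chr17:56117703-56117728, minus strand: tcctagtctgAGGTCAgccatggtga
Apoa2, chr1:171221316-171221341, plus strand: ctcccaccctTGACCTttttttccat
Aqp7, chr4:41048170-41048195, minus strand: actccacctcTGACCTcacaagggct
Cd36, chr5:17836109-17836134, minus strand: ctgcactttaTGACCTgagattttca
Ucp3, chr7:100472832-100472857, plus strand: aaagagccccAGGTCAcggaagctaa
Ucp3, chr7:100472937-100472962, plus strand: attaggtttcAGGTCAgctggtgcac

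The 6 lists held 44496 to 60160 summits, with AD/- library 3 the shortest. Each summit has a score, read here as the −log10 of its q-value. Because scores rise with sequencing depth, which is unknown here, a score is given below as a percentile, ranked among the summits of the same library so that the best is near 100. The tissue label was checked with marker genes of thymocytes and of other cells. All 12 thymocyte markers, among them Cd3e, Rag1 and Bcl11b, had an end summit in each of the 6 libraries. Of the markers of other cells, 1 of 8 hepatocyte, 2 of 8 macrophage, 2 of 8 endothelial, 3 of 8 muscle, 3 of 8 thymic epithelial and 5 of 8 adipocyte genes had one in all 6. The share of all protein-coding genes in that state was 52.6%. Markers with a summit in all 6 include Cebpa and Lipe (adipocytes), Ckm (muscle), Kdr (endothelium), Spi1 (macrophages) and Epcam (thymic epithelium). Alb, Hnf4a, Adgre1, Pecam1, Cdh5 and Krt5 are among those with none in any library. In bulk tissue, fewer cells with an accessible site and less access per cell cannot be told apart.

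PPAR targets were divided at their ends between genes with a summit in every library and genes with none, in shares near those of all protein-coding genes. The division was nearly the same in both genotypes. An end summit was present in all 6 libraries for 19 of the 38 genes (50%), against 52.6% of all protein-coding genes, and in no library for 16 (42.1%), against 40.7% of all. The count per library was 21, 21 and 19 in AD/- and 20, 21 and 21 in null, or 20.3 ± 1.15 against 20.7 ± 0.58 members (SD, n = 3 each, exact permutation p = 1, two-sided, smallest possible 0.10). As a percentage of the list this is 53.5 ± 3.04 in AD/- and 54.4 ± 1.52 in null. Without AD/- library 3 the AD/- mean was 21 members, above the null mean. With all 6 libraries the AD/- minus null difference was also positive, 0.333, with lists cut to equal length or with summits within 500 bp. The sign of this difference thus changed with the choice of libraries and of settings. In no case was an end summit found throughout 1 genotype and nowhere in the other, a state found for 0.0185% of all genes on the AD/- side and 0.0324% on the null side. The labels do not say that the libraries came from different mice, so p-values measure the spread between these libraries.

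**Figure D1:**
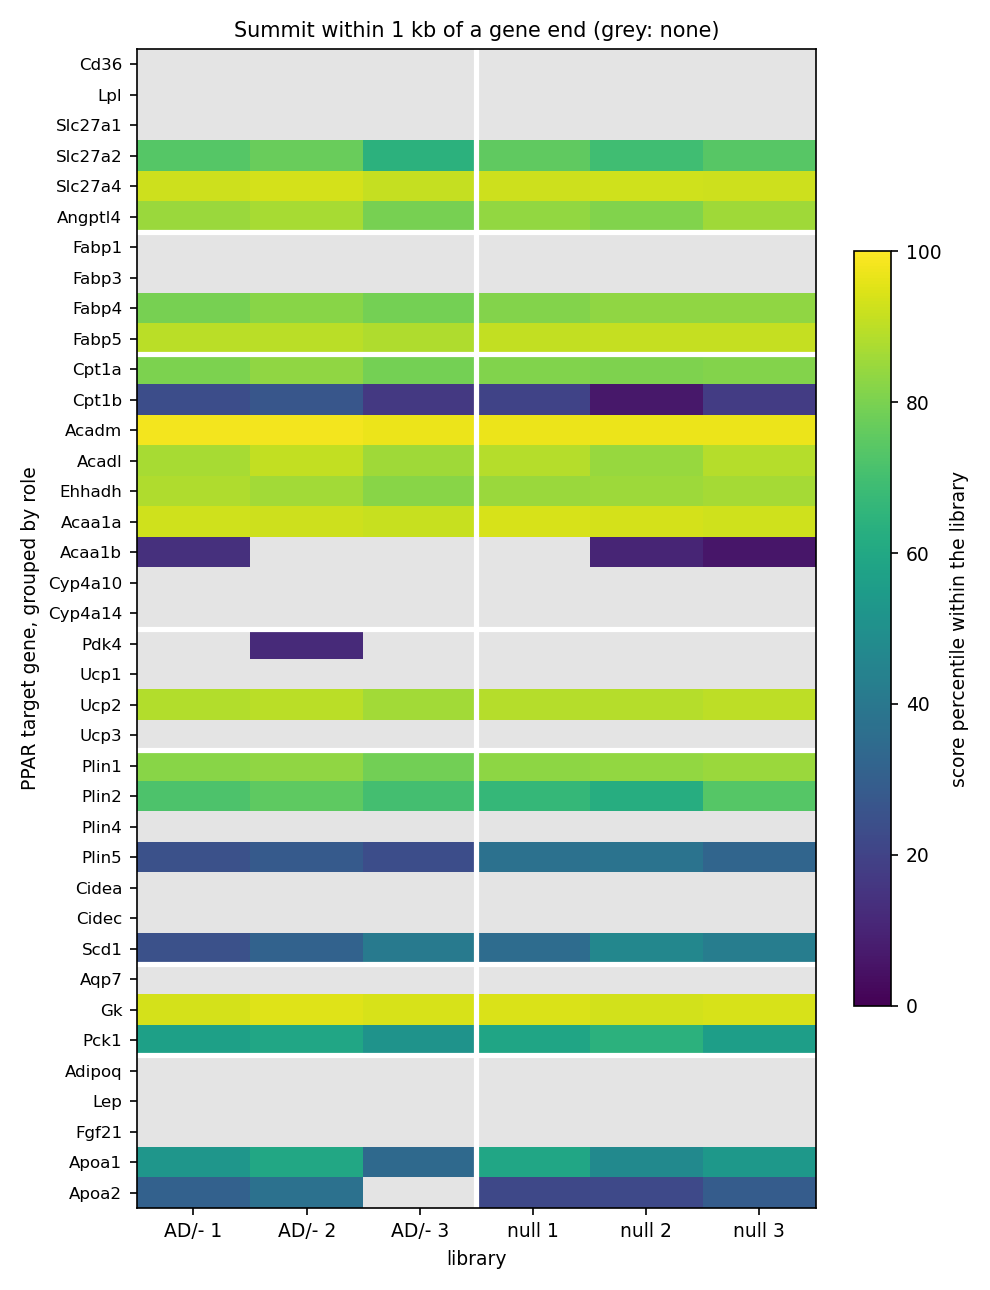
Each row is a PPAR target gene, grouped by role between white lines, and each column a library; colour is the score percentile (0 to 100) of the highest summit within 1 kb of a gene end and grey means no summit. Of the 38 rows, 19 are coloured in all 6 columns, 16 are grey throughout, and Acaa1b, Pdk4 and Apoa2 change between libraries.

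Among the 6 genes of fatty acid import and activation, 3 had an end summit in every library and 3 in none. Slc27a4, a fatty acid transport protein that also activates its substrate to an acyl-CoA, had one of the highest-scoring end summits of the list, at percentiles 92.4, 93.6 and 91.4 in AD/- and 92.3, 92.7 and 92.6 in null. Slc27a2, a relative of Slc27a4 best known from liver and kidney, stood lower, at 73.5, 77.3 and 64.3 against 75.6, 69.3 and 74.1. Angptl4, a secreted inhibitor of lipoprotein lipase, had its summit 217 bp inside an annotated end at 84.8, 86.9 and 79.4 in AD/- and 83.7, 81.1 and 85.8 in null. For all 3 genes the genotypes overlapped. AD/- library 3 gave the lowest of the 6 values for each of them. The genes without an end summit were Cd36, a membrane transporter of long-chain fatty acids, Lpl, which encodes lipoprotein lipase, and Slc27a1. Lpl had no region at all within 20 kb, and Cd36 had 1 weak region, in AD/- library 1 alone (percentile 5.61). Slc27a1, an insulin-responsive fatty acid transporter of muscle and fat, was a different case. Its annotated ends lacked a summit, but a region 95 bp past an inner RefSeq start (chr8, position 71570689) was found in every library at 84.6, 86.4 and 79.1 in AD/- and 82.1, 83.8 and 86.2 in null.

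The intracellular fatty acid-binding proteins split in the same way, 2 of 4 with an end summit in every library. Fabp5, the form of epidermis and many immune cells, reached 89.6, 89.5 and 87.9 in AD/- and 90.7, 91.4 and 91.3 in null. Every null library was above every AD/- library, an AD/- minus null difference of −2.11 percentile points in the mean. Fabp4, the adipocyte form, had a summit 910 bp inside an annotated end, at 79.6, 82.2 and 79.2 against 81.5, 83.2 and 83.3, and the genotypes overlapped. Fabp1, the liver form, had no end summit and no region within 20 kb in any library. Fabp3, the heart form, had no end summit, and its window held 1 region in all 6 libraries, 1340 bp beyond its far end and inside the gene Zcchc17. That region was at 35.7, 53.3 and 14.8 in AD/- and 36.8, 42.9 and 55.8 in null.

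Of 9 genes of mitochondrial and peroxisomal oxidation, 6 had an end summit in all 6 libraries, 2 in none and 1 in some. Acadm, the medium-chain acyl-CoA dehydrogenase, had the highest mean percentile of the 38 genes, 97.4. Its summit, 6 bp from the start, was at 98.3, 98.1 and 97.2 in AD/- and 96.9, 97.1 and 96.9 in null. The groups did not overlap, but the gap between means was 0.91 points. Acaa1a, a peroxisomal thiolase, had its summit 40 bp past the start at 92.8, 92.4 and 91.6 in AD/- and 94.1, 93.6 and 92.8 in null. Acadl, the long-chain acyl-CoA dehydrogenase, followed at 87.0, 90.7 and 85.6 against 88.7, 84.5 and 88.8. Ehhadh, the bifunctional enzyme of peroxisomal oxidation, was at 88.2, 86.1 and 82.2 against 84.8, 85.4 and 86.4. These 3 genes overlapped between genotypes.

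The carnitine palmitoyltransferases, which control the entry of long-chain fatty acids into mitochondria, were unequal. Cpt1a, the form of liver and most tissues, was at 80.2, 83.4 and 79.2 in AD/- and 81.2, 80.6 and 81.3 in null. Cpt1b, the muscle form, was present in every library but had the lowest mean of all 19 genes, with 23.5, 26.8 and 16.8 in AD/- and 20.2, 6.28 and 17.8 in null. Cpt1a also had a second region in all 6 libraries 2198 bp into the gene, at 85.0 to 86.2 in AD/- and 85.2 to 89.2 in null. Acaa1b, a close copy of Acaa1a that is mostly expressed in liver, had a weak summit 29 bp from its start in AD/- library 1 (13.9) and null libraries 2 and 3 (10.4 and 6.23). Cyp4a10 and Cyp4a14, cytochrome P450 genes of fatty acid omega-hydroxylation and classical PPAR-alpha targets of liver, had no region in their overlapping windows. The sources used here do not give how reads that fit more than 1 copy were treated, so the values of Acaa1a and Acaa1b, and the absence at the Cyp4a pair, are uncertain to that extent.

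Of 4 genes for the fuel switch and uncoupling, Ucp2 alone had an end summit in every library. Ucp2, a mitochondrial carrier widely expressed in immune cells, was at 88.5, 89.5 and 86.3 in AD/- and 88.8, 88.8 and 89.9 in null, with a second region 2532 bp past the start at 91.4, 89.97 and 87.4 against 91.0, 94.1 and 88.1. Ucp3, the muscle form and its direct neighbour, had no end summit. Of the 8 regions in its window, the 6 beyond its far end also lie in the window of Ucp2. Ucp1, the uncoupling protein of brown fat, had 1 region, 15555 bp before the start, present in all 6 libraries but weak, at 8.97, 14.9 and 8.85 in AD/- and 3.10, 9.58 and 15.0 in null. Pdk4, the kinase that shuts off pyruvate dehydrogenase when fatty acids are burned, had a single summit in AD/- library 2 at 12.0, 162 bp before its start.

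Lipid droplet and desaturation genes had an end summit in every library in 4 of 7 cases. Plin2, the droplet coat protein of most cell types, was at 72.0, 75.3 and 70.3 in AD/- and 66.7, 62.2 and 73.5 in null. Plin1, the coat protein of adipocytes, had its summit not at the start but at the far side, 11254 bp past the start, at 82.0, 83.5 and 78.7 against 83.0, 83.7 and 84.9. Scd1, the stearoyl-CoA desaturase that makes monounsaturated fatty acids, was at 24.9, 31.5 and 40.8 in AD/- and 35.5, 46.4 and 42.3 in null. In all 3 genes the genotypes overlapped. Plin5, the coat protein of oxidative tissues, had weak summits at both ends and is described with the genotype comparison. Plin4, Cidea and Cidec, droplet proteins of adipocytes, had no end summit. For Cidec, 2 of the 4 regions found in all 6 libraries lay at the ends of its neighbours Rpusd3 and Jagn1, and for Plin4 all 3 were those it shared with the window of Plin5.

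For glycerol handling, Gk was the highest. Gk, the glycerol kinase on chromosome X, was at 93.6, 95.0 and 93.8 in AD/- and 94.2, 93.2 and 94.0 in null, and an end of a neighbouring gene lies within 1 kb of the same summit. Pck1, the phosphoenolpyruvate carboxykinase of gluconeogenesis and glyceroneogenesis, had no summit at its start but one beyond its far end, 6393 bp past the start, at 56.8, 59.1 and 51.2 against 58.6, 64.3 and 56.0. Aqp7, the glycerol channel of adipocytes, had none at its ends and a weak region 2673 bp beyond its start side in every library, at 24.1 to 37.95 in AD/- and 36.4 to 39.4 in null. All 3 overlapped between genotypes.

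Of 5 genes for secreted products, 1 had an end summit in every library, 3 in none and 1 in some. Apoa1, the main protein of high-density lipoprotein, had a summit 1464 bp past its start, near its far end, at 52.5, 59.9 and 34.0 in AD/- and 59.3, 47.5 and 53.3 in null. Apoa2, a second protein of these particles, had a summit 520 bp before the start at 30.9 and 37.2 in AD/- libraries 1 and 2 and at 21.5, 22.1 and 29.0 in null, and none in AD/- library 3. The absence in AD/- library 3 came with the shortest summit list, and whether list length accounts for it was not tested. A stronger region inside Apoa2 lies 87 bp from an end of Tomm40l and was at 93.5 to 96.9 in all 6 libraries.

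Adipoq, Lep and Fgf21, which encode the hormones adiponectin, leptin and fibroblast growth factor 21, had no end summit. Adipoq nevertheless had 9 regions in its window, 6 of them in every library. One of these was 2014 bp before the start, at 67.0, 77.2 and 67.9 in AD/- and 70.2, 61.7 and 70.9 in null, and another 5060 bp into the gene, at 61.6, 65.8 and 50.7 against 59.4, 63.1 and 64.5. A pair beyond its far end, 19082 and 28522 bp past the start, was at 74.1 to 84.6 over the 6 libraries. Lep had 1 region, 17969 bp before the start, at 63.4 and 65.5 in AD/- libraries 1 and 2 and at 53.3, 52.96 and 51.3 in null, with no summit in AD/- library 3. Both AD/- libraries that have it were above all null libraries.

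Ranked over the 19 genes with an end summit in every library, the mean percentile ran from 18.5 (Cpt1b) to 97.4 (Acadm), with a median of 82.6 against 89.1 for all genes in that state. The 6 highest were Acadm, Gk (94.0), Acaa1a (92.9), Slc27a4 (92.5), Fabp5 (90.1) and Ucp2 (88.6). Acadm lay above Gk in every library, while Gk and Acaa1a, Acaa1a and Slc27a4, and Fabp5 and Ucp2 overlapped with each other over the libraries. In 13 of the 19 genes the mean was lower in AD/- and in 6 it was higher, with a median difference of −1.10 points, against −0.60 for all genes with an end summit in every library. Where a gene had a summit at both ends, the higher was used. The genotypes did not overlap for 3 of the 19 genes, Acadm on the AD/- side and Fabp5 and Plin5 on the null side. Among all genes with an end summit in every library the shares were 1.01% on the AD/- side and 5.29% on the null side. The shares of all genes in the next sentences have the same base, taken under each setting. With lists of equal length the members that did not overlap were 2 and 2 of 18 (all genes: 4.31% and 3.87%). Leaving out single libraries moved the counts. On the AD/- side there were 3 of 20 without AD/- library 3 (all genes: 10.1%) and 2 of 19 without null library 3 (4.68%). On the null side there were 6 of 19 without AD/- library 2 (all genes: 22.4%) and 5 of 19 without null library 1 (9.92%).

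The end that carried the summit could be named for members in the promoter table, which holds a start and strand for 29 of the 38 genes. It has no entry for Lpl, Angptl4, Fabp4, Fabp5, Cpt1b, Cyp4a10, Cyp4a14, Cidea and Scd1. Of 14 genes with a strand and an end summit in every library, 9 had it on the start side alone, 2 on both sides (Slc27a4 and Plin5) and 3 on the far side alone (Plin1, Pck1 and Apoa1). A summit within 1 kb of a RefSeq start was found in all 6 libraries for 12 of the 29 (41.4%), against 55.2% of the 17274 genes in the table, and in none for 14 (48.3%), against 39.3%. The count per library was 14, 14 and 12 in AD/- and 13, 14 and 14 in null, or 13.3 ± 1.15 against 13.7 ± 0.58 (SD, n = 3 each, exact permutation p = 1, two-sided). Without AD/- library 3 the AD/- mean was 14, above the null mean.

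Members with a summit at the start had more CG dinucleotides there than members without. In the 300 bases of a promoter entry (250 before and 50 after the outermost start), the 11 members with a summit there in every library had 10 to 34 CG, with a median of 16, and the 15 members with none had 0 to 22, with a median of 6. Over all genes in the table the medians were 22 for 9260 genes with a summit in every library and 3 for 7052 with none. Acadl, printed above, had the highest count, 34, and Adipoq and Aqp7 had 0. The 3 genes whose state changed between libraries had 1 (Apoa2), 4 (Acaa1b) and 12 (Pdk4). Fabp3 with 22, Lep with 19 and Ucp1 with 15 had no summit in any library, although each count exceeds that of Acadm, which has 13 and the highest-scoring summit of the list. Slc27a1 is counted among the genes with none because its summit lies at an inner start.

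**Figure D2:**
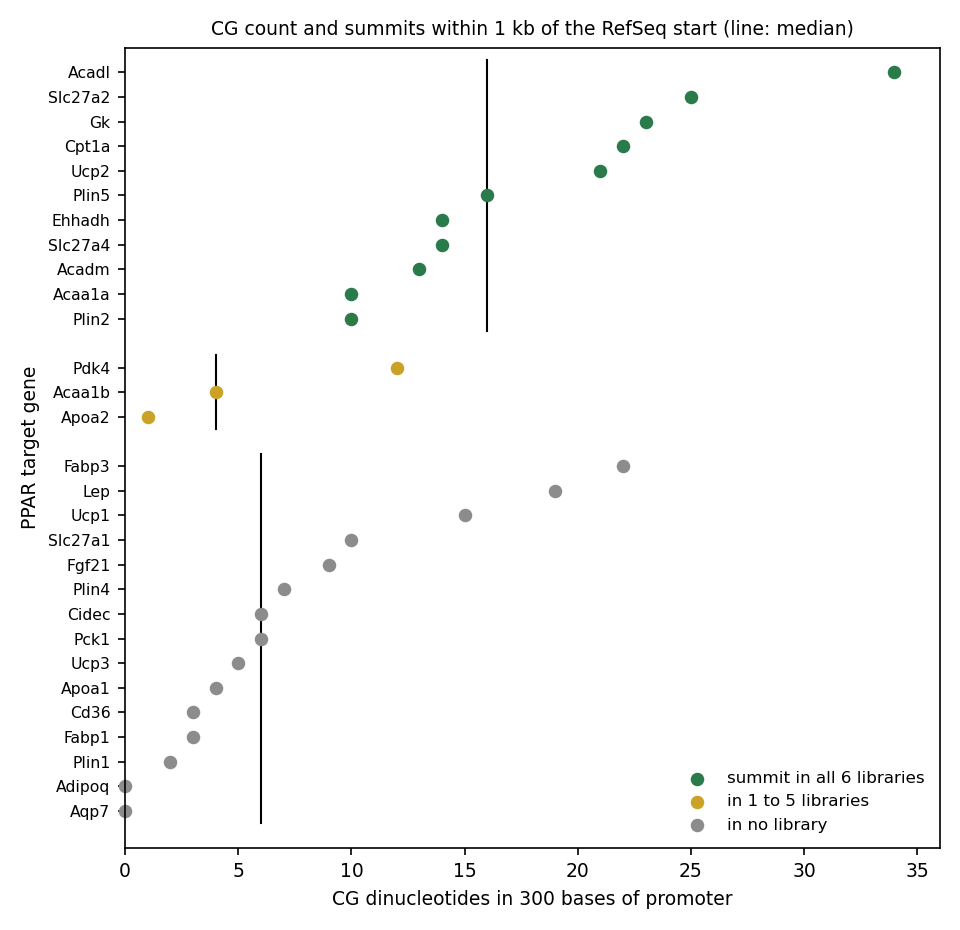
CG dinucleotides in 300 bases of promoter (horizontal axis) for the 29 PPAR targets with a RefSeq start, in blocks by whether a summit lay within 1 kb of the outermost start in all 6, in 1 to 5 or in no libraries; each point is a gene and vertical lines are block medians. The medians are 16, 4 and 6, and Fabp3, Lep and Ucp1 stand out in the lowest block with 22, 19 and 15.

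The core motif AGGTCA, searched on both strands, occurred in 11 of 29 member promoters (37.9%) against 14.4% of all 17274 promoters of the same length. It was in 5 of the 11 members with a start summit in every library and 5 of the 15 with none, against 10.8% and 19.03% of all genes in those states. The strict direct repeat, 2 copies of AGGTCA with 1 base between them, was in no member promoter and in 9 of all promoters (0.0521%). The looser repeat was in 1 member, Fabp1, and in 64 of all promoters (0.370%). In Fabp1 it is TGACCTATGGCCT, beginning 67 bases before the start, and it overlaps one of the 2 core motifs there. GGGCGG, the GC box, searched on both strands, was in 10 of the 11 members with a start summit and 4 of the 15 with none, against 69.0% and 17.2% of all genes in those states. TATAAA, searched on the coding strand, was in Fabp1 and Fgf21 (all promoters: 9.04%), and both lacked a summit. CCAAT was in 12 members (all: 39.6%) and CCGGAAGT, an ETS factor motif, in 0 (all: 5.34%), each searched on both strands. A match describes the letters and does not show that a factor binds there.

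The gene bodies with 20 kb on each side covered 2147.1 kb in 35 windows after merging, and held 145 regions. Of these, 90 (62.1%) were found in all 6 libraries, against 53.4% of all 60735 regions within 20 kb of a protein-coding gene, and 17 (11.7%) in 1 library, against 16% of all. The median was 3.5 regions a gene. The most were at Slc27a1 (10), Adipoq (9) and, with 8 each, Cpt1a, Acaa1a and Ucp3. At Slc27a1, 4 of the 6 regions in every library lay at an end of or inside the neighbours Nxnl1, Pgls and Niban3. At least 1 region in every library was present for 30 of the 38 genes, including 10 of the 16 without an end summit, while Lpl, Fabp1, Cyp4a10 and Cyp4a14 had no region in any library.

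**Figure D3:**
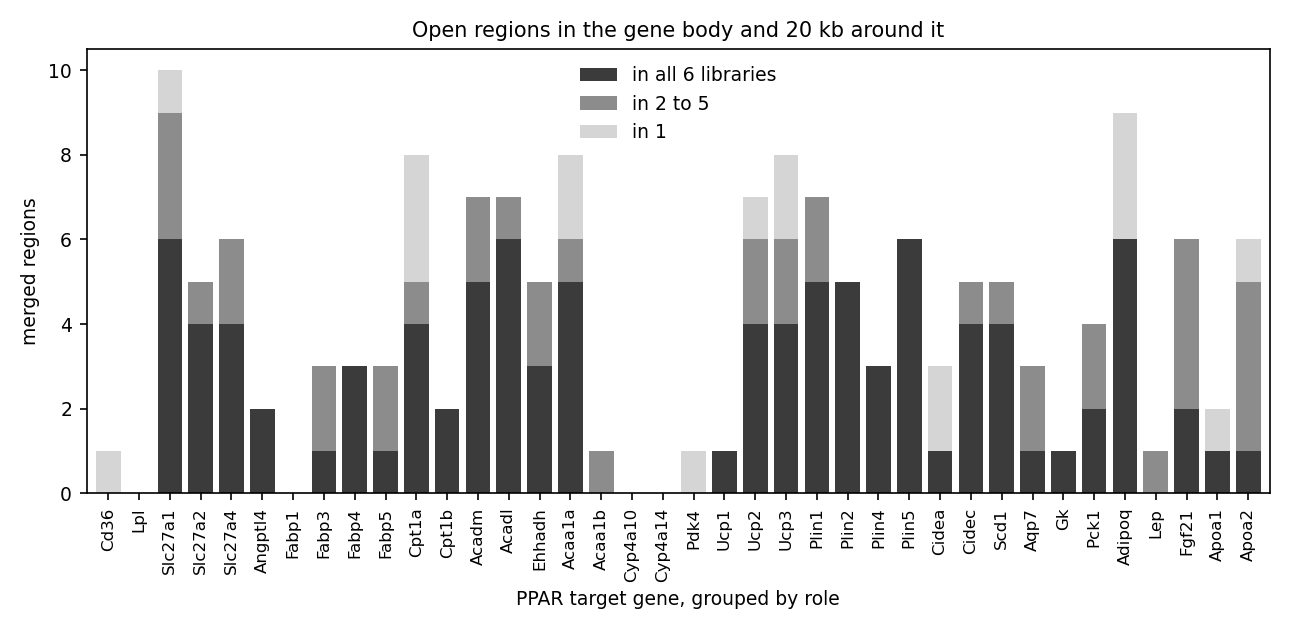
Bars give the number of merged regions in the gene body and 20 kb around it for each of the 38 PPAR targets, grouped by role, split by whether a region was found in all 6, in 2 to 5 or in 1 library. Slc27a1 has 10 regions and Adipoq 9, and Lpl, Fabp1, Cyp4a10 and Cyp4a14 have none; overlapping windows (Ucp2 and Ucp3, Plin4 and Plin5) count shared regions for both genes.

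Of 25 regions at the members' own ends, 21 (84%) were found in every library, and the median of their mean percentiles was 72.4. Regions at an end of another gene had a higher median, 84.4, with 19 of 27 in every library. Regions away from gene ends scored lower, with medians of 33.3 inside the members (13 of 24 in every library), 36.7 inside other genes (11 of 21) and 35.7 outside genes (26 of 48).

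The share of summits that fell in the windows did not differ between genotypes beyond the spread of the libraries. The share was 0.214%, 0.194% and 0.227% of a library's summits in AD/- and 0.211%, 0.210% and 0.207% in null, or 0.212 ± 0.0164 against 0.209 ± 0.00207 (SD, n = 3 each, exact permutation p = 0.7, two-sided). The lowest and the highest share were both AD/-, from the longest and the shortest list. Without AD/- library 3 the AD/- mean fell below the null mean, a difference of −0.00486, and without AD/- library 2 the difference was 0.0114, in place of 0.00269 with all 6. The median percentile of the summits in the windows was 57.6, 59.1 and 54.0 in AD/- and 58.9, 58.9 and 57.7 in null, or 56.9 ± 2.62 against 58.5 ± 0.72 (exact permutation p = 0.6, two-sided). This difference of −1.55 points was also within the spread between libraries, and it was −0.100 without AD/- library 3 and −2.65 without AD/- library 2.

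A single region of the 145 (0.690%) was present in all AD/- and no null libraries, against 0.17% of all regions near genes, and none was present in all null and no AD/- libraries, against 0.415%. The AD/- region lies 15139 bp beyond the far end of Pck1 (chr2:173174132-173174694, GRCm38), at percentiles 46.6, 44.8 and 33.7. The nearest null summit is 792 bp from it and belongs to an adjacent region (position 173173392) that was found in every library, at 40.0, 51.2 and 36.6 in AD/- and 47.7, 54.2 and 58.2 in null. With summits extended by 500 bp in place of 250 bp the regions merged and the call was lost. The AD/- libraries thus had a second summit beside one that all 6 share. Counts of such regions moved when single libraries were left out, and so did the shares of all regions. The Pck1 region kept its call each time. There were 2 AD/- regions without AD/- library 1 (1.40%, all regions: 0.409%), without AD/- library 3 (1.39%, all: 1.05%) and without null library 2 (1.41%, all: 0.371%). On the null side there were 4 without null library 1 (2.76%, all: 1.24%). There was 1 without AD/- library 1 (0.699%, all: 0.805%), AD/- library 2 (0.709%, all: 1.83%), null library 2 (0.704%, all: 1.08%) or null library 3 (0.704%, all: 0.918%).

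With the looser requirement of at least 2 libraries of a genotype and none of the other, 3 regions were AD/- (1.46% of all regions near genes meet this) and 6 were null (2.32% of all). The AD/- regions were that of Pck1, one 2978 bp outside Fabp5 (21.2 and 32.8 in AD/- libraries 2 and 3) and one 17803 bp outside Scd1 (14.8 and 15.5 in AD/- libraries 1 and 2). On the null side they lay near Slc27a1, Cpt1a, Acadm, Acadl, Cidec and Fgf21. The highest of the 6, 10383 bp from Slc27a1 and beside Tmem221 (67.4 and 69.9 in null libraries 1 and 3), had an AD/- summit 795 bp away. That summit belongs to an adjacent region at 67.1, 67.2 and 62.6 in AD/- and 67.4 in null library 2. The adjacent region was absent from null libraries 1 and 3, so each library had 1 of these neighbouring regions. The other 5 null regions were at 5.06 to 43.1. In Cidec the region lies inside the gene (24.1 and 27.2 in null libraries 2 and 3), and the nearest AD/- summit is 8144 bp away. That of Cpt1a is also inside its gene (5.06 and 8.03 in the same libraries), 4869 bp from an AD/- summit. This distance was 11586 bp for the Acadl region, 6551 bp for Fgf21 and 2579 bp for Acadm.

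Among the 90 regions in every library, the percentiles did not overlap between genotypes at 7. At 2 of them AD/- was higher in every library (2.22%, against 0.765% of all regions near genes in every library), and at 5 null was higher (5.56%, against 5.57%). The median difference over the 90 was −1.49 points, against −1.36 for all such regions near genes. On the AD/- side were the Acadm start, with 97.9 ± 0.576 against 97.0 ± 0.0807 (SD, n = 3 each), and a region 5847 bp outside Scd1 at 94.5, 95.8 and 94.7 against 93.4, 94.1 and 93.9. Both gaps are small, 0.91 and 1.20 points near the top of the scale. The split depended on list length. With all lists cut to the 44492 best-scoring summits, 6 regions were AD/- higher (7.59%, all regions: 4.92%) and 4 null higher (5.06%, all regions: 4.46%).

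**Figure D4:**
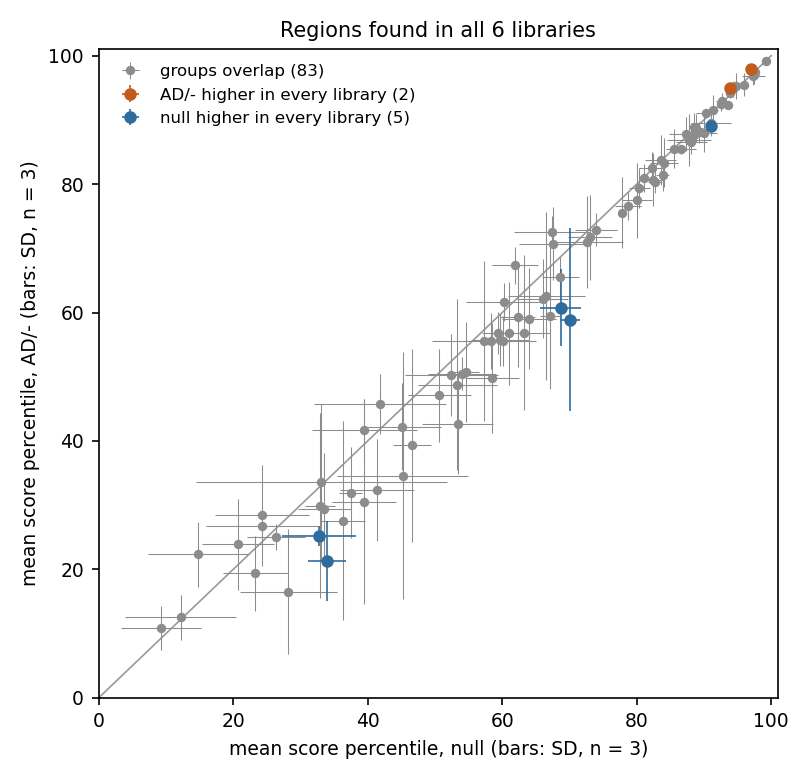
Mean score percentile in AD/- (vertical axis) against null (horizontal axis) for the 90 regions in the windows found in all 6 libraries; bars are SD over 3 libraries and the line marks equality. The 83 grey points overlap between genotypes, 2 orange points are higher in every AD/- library and 5 blue points are higher in every null library.

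On the null side the largest gap was at Plin5, and it was the only member with both ends in this state. At its far end (position 56112014 on chromosome 17) the percentile was 16.3, 28.3 and 19.4 in AD/- and 37.3, 32.2 and 32.5 in null, a difference of −12.6 points. At its start (position 56117608) it was 24.9, 26.8 and 23.7 against 33.0, 38.2 and 27.2, a difference of −7.68 points that was −4.99 without null library 2. With lists of equal length the difference at the start was −4.58 points and the groups overlapped, and the far end was no longer present in all 6 libraries. Slc27a1 followed with 2 distant regions, 31642 and 25496 bp past its nearest RefSeq start. The first, inside Niban3, was at 67.6, 66.6 and 42.4 in AD/- and 70.4, 68.4 and 71.3 in null, a difference of −11.2 points that shrank to −2.94 without AD/- library 3. The second, at an end of Pgls, was at 62.8, 65.4 and 54.0 against 67.7, 72.1 and 66.3, a difference of −7.94 that was −4.58 without AD/- library 3. The end of Fabp5, given above, was the last of the 5.

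These counts also moved with single libraries, and so did the shares of all regions. Without AD/- library 2, 22 regions were null higher (24.2%, all regions: 25.4%). Without AD/- library 3, 11 were AD/- higher and 9 null higher (11.1% and 9.09%, all regions: 11.7% and 6.35%). The null-higher count was 10 without AD/- library 1 (10.9%, all regions: 8.57%), 11 without null library 1 (12.2%, all: 11.8%) and 10 without null library 3 (11.1%, all: 10.6%). Without null library 3 the AD/- count was 7 (7.78%, all: 3.40%). AD/- library 3 had the shortest list and AD/- library 2 the longest.

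**Figure D5:**
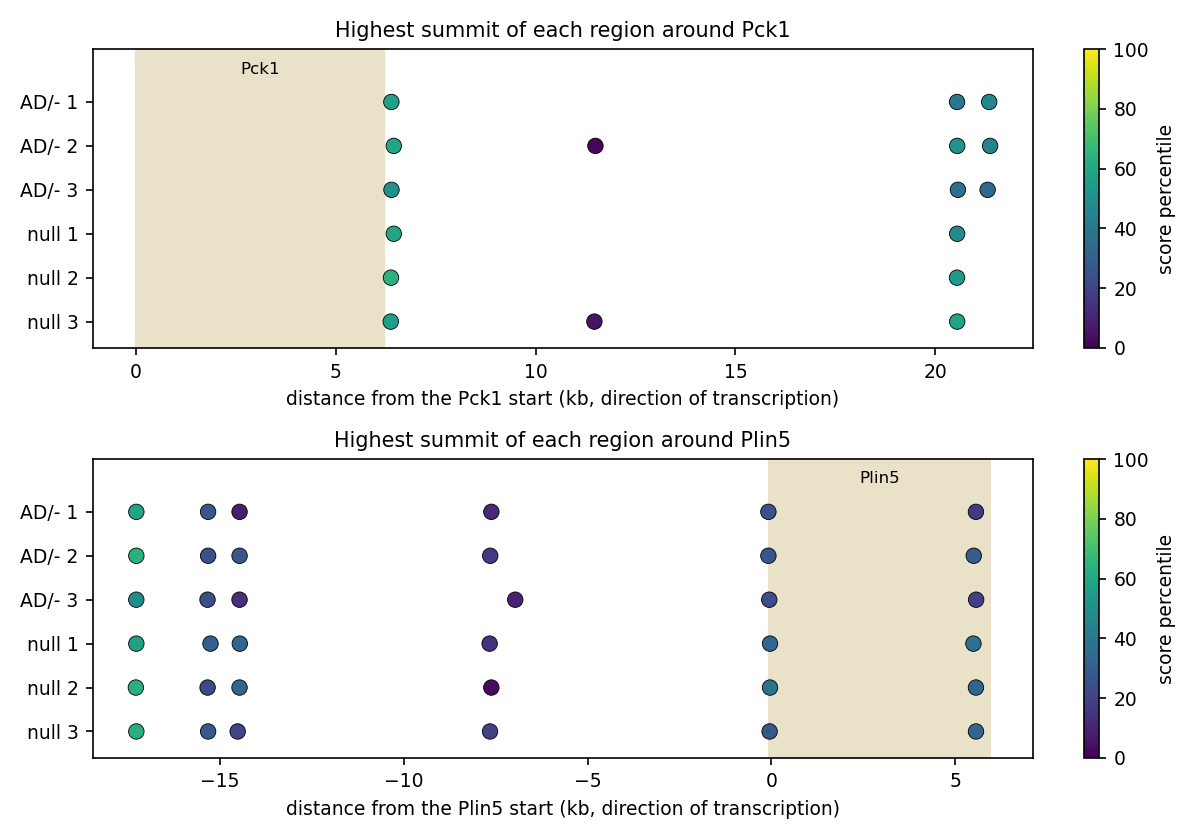
Regions around Pck1 (top) and Plin5 (bottom) in each of the 6 libraries, by distance in kb from the gene's start in the direction of transcription; shading is the gene, each point is the highest summit of a region in that library, and colour is its score percentile. The 3 AD/- rows at Pck1 have a point 21340 bp past the start that the null rows lack, beside one that all rows share, and at Plin5 both end regions are darker in every AD/- row.

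The wider pathway was read from a list of 46 other PPAR pathway genes. Of these, 28 (60.9%) had an end summit in all 6 libraries, against 52.6% of all protein-coding genes. In 13 (28.3%) there was none, against 40.7% of all, and 5 had one in some libraries. The count was 31, 31 and 28 genes in the AD/- libraries and 31, 29 and 29 in null. The genes with none include Cyp7a1 and Cyp8b1, which are hepatic enzymes of bile acid synthesis, and Fabp2, Fabp6 and Fabp7. The others were Acox2, Acsl5, Cyp4a12a, Olr1, Gk2, Apoc3, Scp2 and Vnn1. The 5 that differed between libraries were Acsl6, Cpt1c, Me1, Cyp27a1 and Apoa5, all weak, at percentiles of 0.651 to 25.9. None was present in a single genotype throughout. The receptors, their RXR partners and coregulators had an end summit in all 6 libraries for 14 of 17 genes (82.4%, all protein-coding genes: 52.6%). Rxrg and Ncoa2 had none. Pparg, which encodes the adipocyte receptor, had a weak end summit at 10.6 and 14.9 in AD/- libraries 1 and 2 and at 25.5, 21.9 and 7.66 in null, and none in AD/- library 3.

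Markers of other cell types were counted beside these results because several members belong to fat, liver or muscle. The number of adipocyte markers with an end summit was 6, 6 and 5 of 8 in AD/- and 6 in each null library, and of muscle markers 4, 4 and 3 against 4 in each. It was 1 of 8 hepatocyte markers in every library (Tat). Macrophage markers numbered 3, 3 and 2 against 2, 3 and 2, and endothelial markers 3, 3 and 2 against 2 in each. Thymic epithelial markers numbered 4, 5 and 4 of 8 in AD/- and 6, 6 and 5 in null, with Foxn1, Psmb11 and Prss16 the genes that changed. Psmb11 was found in null libraries 1 and 2 alone, at percentiles of only 1.20 and 5.27. Foxn1 lacked a summit in AD/- library 1 alone, and Prss16 in AD/- library 3 alone, which has the shortest list. The part of these cells in the values of the members was not tested.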

How the data were processed

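ATAC-seq libraries of thymus were grouped by the genotype label, 3 AD/- and 3 null. The labels give no replicate numbers, so libraries were numbered in accession order. The authors deposited a summit list per library, so peaks were not pooled. The score of a summit was read as the −log10 of the q-value, because the lowest score of each deposited list lies between 1.30 and 1.39, near a cutoff of q = 0.05. The submitters' processing notes list MACS2 2.1.2, Bowtie2 2.3.4.2, Trim Galore 0.4.5 and Picard 2.9.0 with the build GRCm38, and give no role for any of them. Shifting for the transposase, duplicate removal and masking are not given in the sources used here. Read counts were not used here, so depth is unknown and no interval on a percentile can be given.

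Summits on chromosomes 1 to 19 and X were ranked within each library, extended by 250 bp on each side and merged over libraries. Gene ends come from RefSeq (GRCm38.p6), and starts, strands and promoter sequences from RefSeq's promoter entries for the same build, which hold 29 of the 38 members. Values per library were compared by an exact permutation test, two-sided, over all 20 relabellings (smallest p 0.10). Single genes and regions have no test, since 3 against 3 cannot go below that, and are read against the percentage over all genes or regions. Alternatives were lists of equal length, scores no lower than 5, other distances, windows and extensions, a looser rule and leaving out each library. The counting steps were tested on simulated summits (Python 3.11.15, pandas 2.3.3, SciPy 1.17.1).

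The members, the other gene lists and the markers were chosen with earlier results of these data known. Named with values were members whose end state differs between libraries, those with a genotype-specific region, those without an end summit, the 6 highest at an end, the 5 with most regions, and the 4 largest gaps in each direction among regions that do not overlap. Other members and regions were described after their values were seen, so that each role is shown.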

Additional observations from a re-analysis of the deposited data

How the results depend on the processing

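No paired analysis was possible because the labels give no replicate numbers. Of the 131 values recomputed for the comparisons, 90 kept their sign (differences) or stayed within 1.5 times (counts), 36 moved and 5 changed sign, and the lowest permutation p was 0.4 with all 6 libraries and 0.2 with 5, where 0.2 is the smallest possible. The AD/- minus null difference in members with an end summit, −0.333, became 0.333 with equal lists or within 500 bp and 0 with a score of at least 5. It ranged from −0.667 to 0.333 when libraries were left out, and the count at RefSeq starts had the same range, with 0 within 500 bp or at a score of at least 5. Without single libraries the share in the windows differed by −0.00486 to 0.0114, and its sign changed without AD/- library 3. The median percentile differed by −2.65 to −0.100. Genotype-specific regions were 1 (AD/-) and 0 (null) of 145, against 0.170% and 0.415% of all regions near genes. With a window of 5 kb they were 0 and 0 of 71 (all regions: 0.161% and 0.409%), and with 50 kb 2 and 1 of 291 (all: 0.171% and 0.422%). An extension of 500 bp gave 0 and 0 of 135 (all: 0.107% and 0.396%), and the looser rule 3 and 6 of 145 (all: 1.46% and 2.32%). When libraries were left out they numbered 1 to 2 and 0 to 4 (all: 0.306% to 1.05% and 0.550% to 1.83%). Regions that did not overlap were 2 (AD/-) and 5 (null) of 90, against 0.765% and 5.57% of all regions near genes in every library. With a score of at least 5 they were 1 and 9 of 88 (all regions: 0.331% and 8%). With equal lists they were 6 and 4 of 79 (all: 4.92% and 4.46%). With a window of 5 kb they were 1 and 3 of 48 (all: 0.768% and 5.4%), and with 50 kb 2 and 10 of 174 (all: 0.755% and 5.56%). The null share of the members' regions was 5.56% with 20 kb, 6.25% with 5 kb and 5.75% with 50 kb. Without single libraries they numbered 2 to 11 and 7 to 22 (all: 0.968% to 11.7% and 6.35% to 25.4%). Member ends that did not overlap were 1 (AD/-) and 2 (null) of 19, against 1.01% and 5.29% of all genes with an end summit in every library. With a score of at least 5 they were 0 and 3 of 19 (all genes: 0.482% and 7.28%). With equal lists they were 2 and 2 of 18 (all: 4.31% and 3.87%). Without single libraries they numbered 1 to 3 and 2 to 6 (all: 1.36% to 10.1% and 6.34% to 22.4%). Of single regions, Acadm overlapped between genotypes with a score of at least 5 (0.884 points), as did the Plin5 start with equal lists (−4.58). The cause of these changes was not tested. The counts for members' ends that did not overlap and the values of single regions were added after the data were seen. Summits are all that measures detection here, so a gene without one is not shown to be closed.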
